A study of Mus musculus with 12 samples.

Results

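A group of 121 genes, measured in mouse bone marrow monocytes, was higher after 24 h than after 12 h of culture with interferon β (IFNβ) and was in neither of the authors' other lists that give library values. The group held genes of the lysosome and endosome (Lgmn, Gaa, Naglu, Igf2r), cell surface receptors (Itgb5, Ednrb), secreted proteins (Ccl6, Ecm1, Angpt2) and detoxifying enzymes (Dhrs3, Gstp1). The 121 genes are part of 602 that the authors list as changed between these times with IFNβ, and of 2038 listed in any of the 3 tables that give library values. The monocytes were purified from marrow with magnetic beads and cultured with 20 ng/mL macrophage colony-stimulating factor (M-CSF), which all 4 groups received. The groups were control at 12 h, 100 U of IFNβ at 12 h, control at 24 h and 100 U of IFNβ at 24 h, with 3 samples each and 12 in all. No genotype, strain or age is given in the labels, and nothing in them says that the replicates came from separate animals, so the spread given here may be technical.

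M-CSF is the growth factor that turns monocytes into macrophages, which take up dead cells and debris and break them down in lysosomes. IFNβ is a type I interferon that signals through JAK kinases and STAT factors. It first switches on antiviral genes whose promoters carry an interferon-stimulated response element. Lysosomal enzymes are made in the endoplasmic reticulum, tagged with mannose 6-phosphate and carried to the lysosome by a receptor encoded by Igf2r, and many of their genes carry an E-box (CACGTG) that factors of the TFEB family can bind.

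The members were chosen by measured values. Each was in the authors' list for 24 h against 12 h with IFNβ, had a higher mean at 24 h, and was in neither the list for IFNβ against control at 12 h nor the list for 24 h against 12 h without IFNβ. Of 602 listed genes 335 were higher at 24 h, which is 2.16% of the 15541 genes tested as the deposited p-values imply. The rule found 126 genes, and 5 of them (Ccl8, Ctsl, Pdgfc, Ms4a7 and Ms4a14) were left out by name. The rise itself is therefore a description and carries no test. Values of the members in the 6 control libraries were not analysed here, so whether their change with time differed from that of control cells was not tested, and a gene outside a list is not shown to be unchanged.

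All levels are the authors' normalized counts, given in the order of replicates 1, 2 and 3. Log2 differences are 24 h minus 12 h on the log2(normalized count + 1) scale, each with its standard error from limma (n = 3 per time). That fit used the 602 listed genes only and did not pair the replicate numbers. For low counts the added 1 makes a change look smaller than it is. Depth per library is unknown, since the lists hold only part of each library. The median member went from a mean of 54.8 normalized counts at 12 h to 141 at 24 h, and the median log2 difference was 1.43. The differences ran from 0.98 to 3.65, with quartiles at 1.12 and 2.22. In 120 of 121 members every 24 h library was above every 12 h library, beside 98.2% of all 335 listed genes that were higher, and the rule used this contrast. Within each replicate number all 121 members were higher at 24 h, which follows for the 120 without overlap. In 63 members the rise was at least 1 on the log2 scale in every pair. Shares of the other listed genes in these pairs were not computed. At 24 h, 40 members had a mean under 50 normalized counts, 58 had 50 to 1000, and 23 had 1000 or more.

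**Figure D1:**
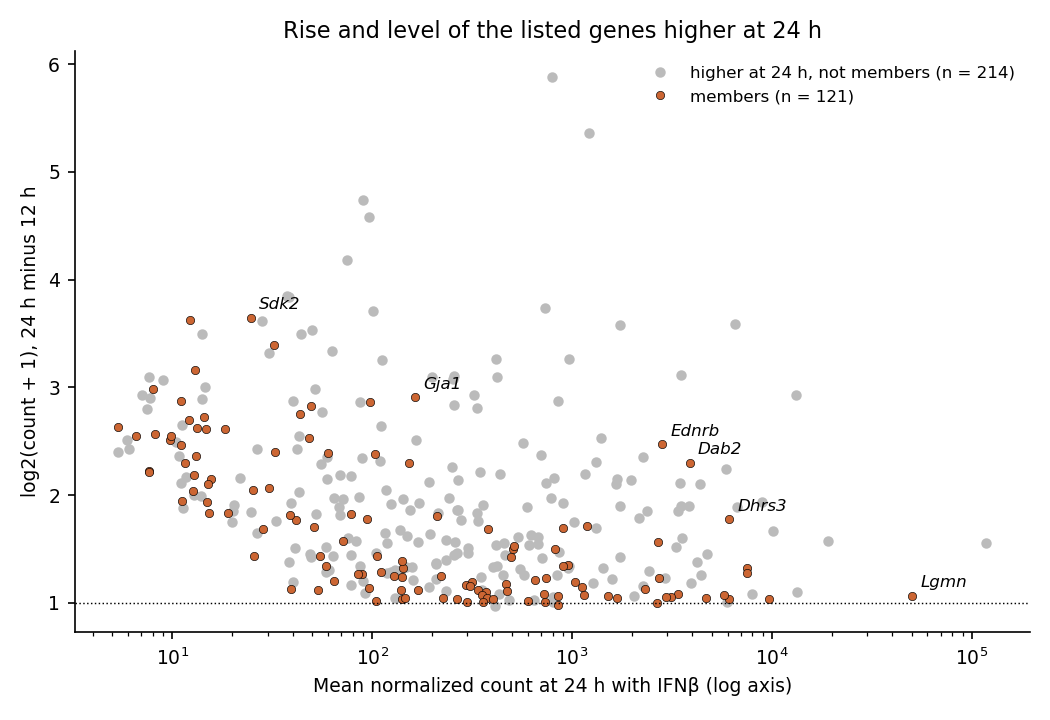
Log2 difference (24 h minus 12 h, on the log2(normalized count + 1) scale) against the mean normalized count at 24 h with IFNβ (log axis), 1 point per listed gene higher at 24 h: 121 members in orange and the other 214 in grey, with a dotted line at a difference of 1. Members of high level, such as Lgmn, lie near the line, and Ednrb, Dab2 and Dhrs3 stand above it.

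Large differences were mostly found at low levels, which the selection itself favours, since a gene with few counts passes the adjusted p threshold only with a large fold. Of 41 members with an authors' log2 fold change of 2 or more, 34 had a mean under 50 normalized counts at 24 h and 7 were at or above it, while 46 members had a log2 fold change under 1.25 in the authors' deposited table. Lgmn had the highest level per kb of exon, 21702 normalized counts per kb at 24 h, followed by Wfdc17 with 5874, Ccl6 with 4193 and Ecm1 with 2978. The median level per kb was 528 over the 11 members of the lysosome and endosome, 158 over the 9 redox and detoxifying enzymes, 37.7 over the 14 secreted proteins and 9.29 over the 10 transcription factors and zinc fingers. Their median log2 differences were 1.07, 1.20, 1.82 and 1.66. The lysosomal members thus paired the highest median level of these 4 groups with the smallest median difference, and the thresholds on fold and adjusted p that chose the members bear on both.

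**Figure D2:**
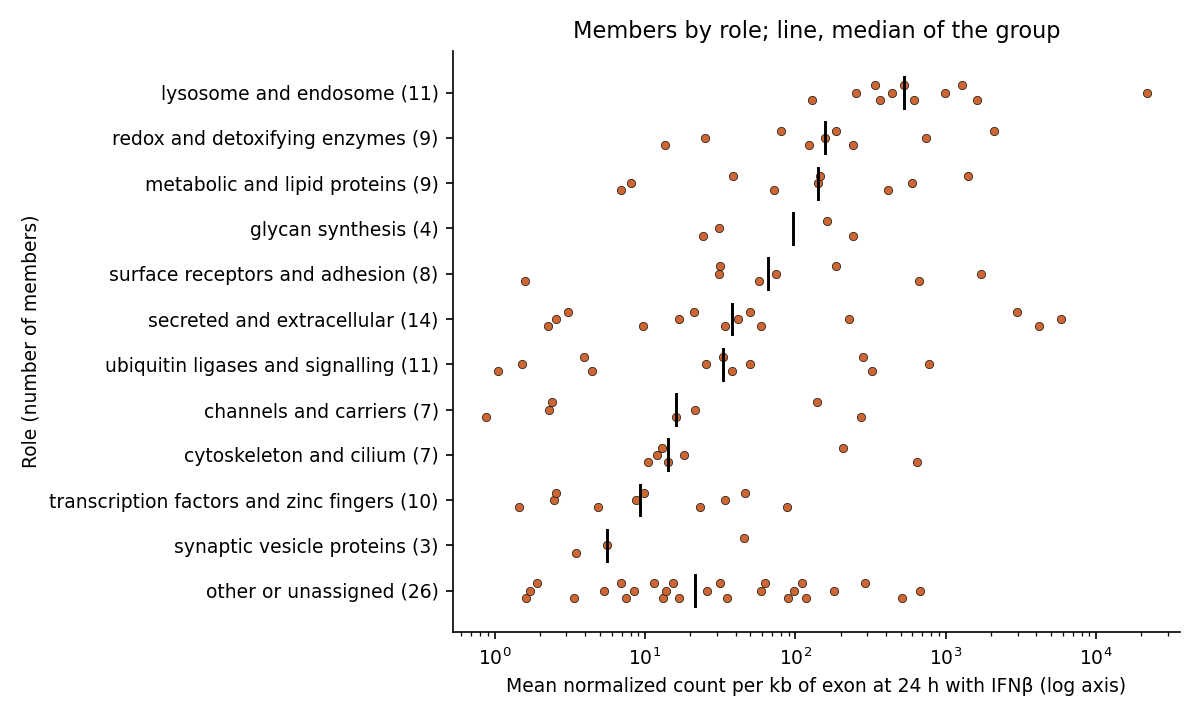
Mean normalized count per kb of exon at 24 h with IFNβ (log axis) for the 119 members with a known exon length, 1 point per member, in 11 role groups and an unassigned group, with a black line at each group's median. The lysosome and endosome group has the highest median, 528 per kb, and holds Lgmn at 21702 per kb.

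Lgmn (chromosome 12, 102394084 to 102439813, GRCm38) encodes legumain, a lysosomal protease that cuts after asparagine. Its level was 28155, 18272 and 25418 at 12 h and 64385, 39699 and 47155 at 24 h. The means went from 23948 ± 5103 to 50413 ± 12661 (SD), a log2 difference of 1.07 ± 0.24, and the groups did not overlap. Gaa (chromosome 11, 119267887 to 119285454), the acid glucosidase that breaks down glycogen in lysosomes, measured 2383, 1921 and 2553 at 12 h and 4940.5, 4527 and 4644 at 24 h, a log2 difference of 1.05 ± 0.18. Naglu (chromosome 11, 101070012 to 101077672), which removes terminal sugars from heparan sulfate, measured 1779.7, 1409 and 1623 at 12 h and 3563, 3439 and 3148 at 24 h, with a difference of 1.08 ± 0.18. In Gaa and Naglu the 3 libraries of each time lay closer together than in Lgmn. Igf2r (chromosome 17, 12682406 to 12769664), the mannose 6-phosphate receptor named above, measured 2879.5, 1869 and 3263 at 12 h and 7748, 3583 and 5895 at 24 h, a difference of 1.07 ± 0.29. Replicate 2 was lowest at both times in Lgmn, Gaa and Igf2r.

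The promoter letters of these 4 genes are shown because the E-box was found in each. The windows run from 250 bases before to 50 after a RefSeq gene start (GRCm38.p6), 5′ to 3′ on the gene's strand, with the E-box CACGTG in capitals.
Lgmn, chr12:102439043-102439342, minus strand: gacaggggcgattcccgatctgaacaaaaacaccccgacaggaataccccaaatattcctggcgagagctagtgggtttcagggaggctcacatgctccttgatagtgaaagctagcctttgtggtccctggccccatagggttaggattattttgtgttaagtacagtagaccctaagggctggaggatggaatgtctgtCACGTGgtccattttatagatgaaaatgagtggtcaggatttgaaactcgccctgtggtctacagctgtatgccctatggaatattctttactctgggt
Gaa, chr11:119267713-119268012, plus strand: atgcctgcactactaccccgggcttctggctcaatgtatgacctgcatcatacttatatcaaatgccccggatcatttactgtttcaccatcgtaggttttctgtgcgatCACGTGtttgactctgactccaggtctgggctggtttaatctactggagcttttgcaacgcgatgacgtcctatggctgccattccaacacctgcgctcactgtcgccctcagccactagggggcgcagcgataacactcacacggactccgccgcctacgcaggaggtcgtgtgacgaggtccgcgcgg
Naglu, chr11:101069844-101070143, plus strand: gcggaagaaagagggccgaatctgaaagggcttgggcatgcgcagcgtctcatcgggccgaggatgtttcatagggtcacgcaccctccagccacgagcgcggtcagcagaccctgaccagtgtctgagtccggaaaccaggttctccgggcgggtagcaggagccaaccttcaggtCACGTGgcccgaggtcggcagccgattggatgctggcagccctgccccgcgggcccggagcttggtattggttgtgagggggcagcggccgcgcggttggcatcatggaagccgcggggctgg
Igf2r, chr17:12769657-12769956, minus strand: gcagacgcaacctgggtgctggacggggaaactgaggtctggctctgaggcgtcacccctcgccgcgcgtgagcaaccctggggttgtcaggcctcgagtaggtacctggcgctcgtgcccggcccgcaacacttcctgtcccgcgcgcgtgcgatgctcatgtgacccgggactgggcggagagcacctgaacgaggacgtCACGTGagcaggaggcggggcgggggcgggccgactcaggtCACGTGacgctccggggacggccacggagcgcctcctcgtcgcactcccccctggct
Lgmn has 2 windows in RefSeq, and the letters were only in the one further downstream. Of the 11 members of the lysosome and endosome, 9 had a window and these 4 held the E-box (44.4%). Among members of other roles 7 of 85 with a window held it (8.24%), and over all 27025 genes with a window the share was 8.09%. Among all genes of the lysosome list, changed or not, 17 of 45 with a window held an E-box (37.8%), so the share is also high in lysosomal genes that were not listed as changed. This split by role was made after the matches had been seen, and a match is only the presence of the letters.

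The other members of this compartment act in membrane traffic and ion transport. Atp13a2, a lysosomal pump that exports polyamines, measured 5297, 4093 and 4777 at 12 h and 10429.6, 9325 and 9117 at 24 h, a difference of 1.03 ± 0.18. Dab2, a clathrin adaptor that draws receptors into endocytic pits, measured 741, 535 and 1052 at 12 h and 4962, 2334 and 4329.6 at 24 h. Its means went from 776 ± 260.1 to 3875 ± 1371 (SD), and its difference of 2.30 ± 0.31 was the largest of the 11. Tpcn2, a cation channel of the lysosomal membrane, went from a mean of 1042 to 2307 (1.13 on the log2 scale). Snx24 and Snx16, members of the sorting nexin family, went from 286 to 825 and from 154 to 339. Ap5s1, a subunit of a late endosomal adaptor complex, and Appl2, an adaptor on early endosomes, had the differences 1.02 and 1.06. The groups did not overlap in any of the 11, beside 98.2% of all 335 listed genes that were higher.

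**Figure D3:**
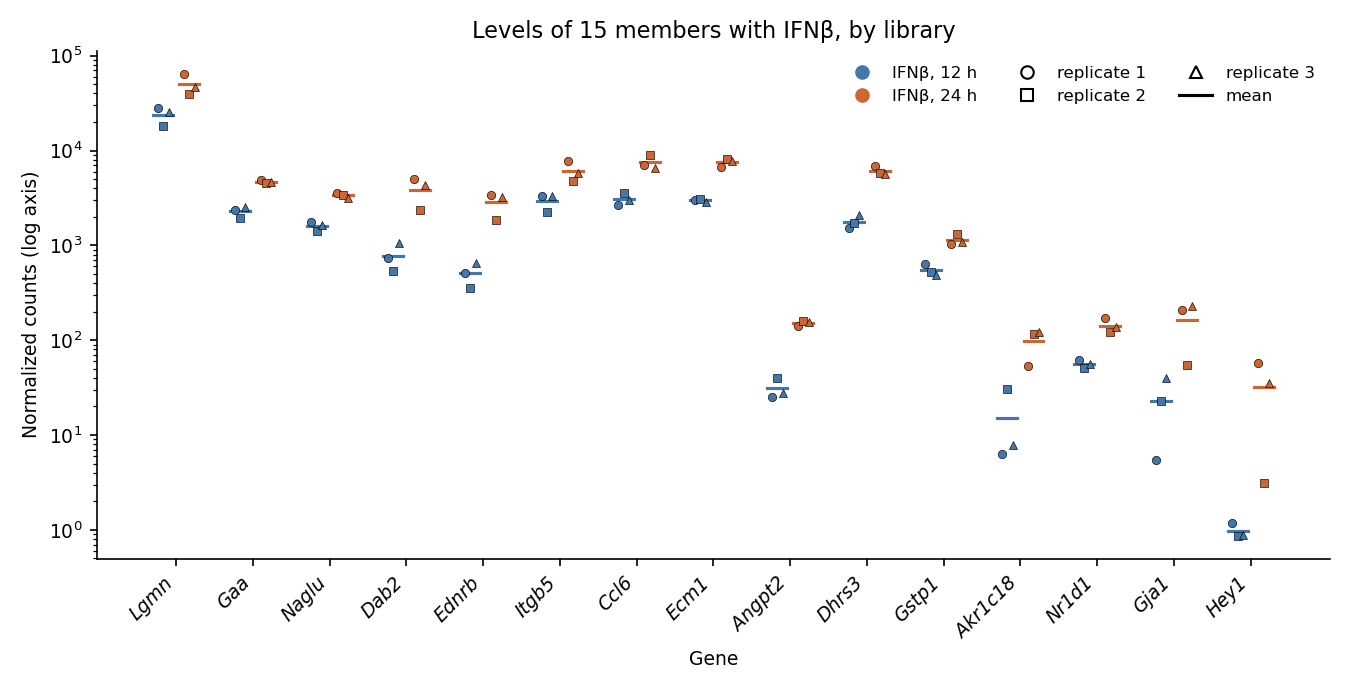
Normalized counts (log axis) of 15 members in the 6 libraries with IFNβ, 12 h in blue and 24 h in orange, with 1 symbol per replicate number and a line at each mean. The times are separate in every gene shown, and replicate 2 is the lowest library at both times in Lgmn, Gaa, Dab2, Ednrb and Itgb5 and the highest in Ccl6, Ecm1 and Angpt2.

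Among the 8 surface receptors and adhesion proteins, Ednrb (chromosome 14, 103814625 to 103844402), the endothelin receptor type B, had the largest change of those with a mean above 100 normalized counts. It measured 512, 355 and 652 at 12 h and 3381, 1851 and 3272 at 24 h, a difference of 2.48 ± 0.28, and its lowest 24 h library was above its highest 12 h library. Itgb5 (chromosome 16, 33829665 to 33949338), the integrin β5 chain that pairs with αv in binding matrix and apoptotic cells, measured 3329.7, 2248 and 3304 at 12 h and 7723, 4774 and 5782 at 24 h, a difference of 1.04 ± 0.23. P2ry2, a receptor for extracellular ATP and UTP, measured 327, 409 and 358 at 12 h and 787, 672 and 735 at 24 h, which is a difference of 1.004 ± 0.20 with little spread between libraries. Gpr85, an orphan receptor, went from a mean of 54.8 to 128, and Grm6, a glutamate receptor best known from the retina, from 140.3 to 311. Cd109, a GPI-anchored protein that binds TGF-β, went from 178 to 513. Sdk2, an adhesion molecule of the immunoglobulin family, was near the lower limit of counting at 12 h. It measured 0.0503, 1.79 and 1.81 at 12 h and 31.0, 23.8 and 19.4 at 24 h. Its difference of 3.65 ± 0.57 was the largest of any member on the log2(normalized count + 1) scale only. By log2 fold change in the authors' deposited table, Hey1 (4.87) was among the members above Sdk2 (4.14). Lrp11 went from 39.2 to 105.

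The 14 secreted and extracellular members held 3 genes with means above 1000 normalized counts at both times. Ccl6 (chromosome 11, 83587882 to 83593087), a chemokine of rodent myeloid cells, measured 2658, 3595 and 3034 at 12 h and 6985, 9079 and 6517 at 24 h, a difference of 1.28 ± 0.20. Ecm1, a secreted glycoprotein of the extracellular matrix, measured 3021, 3073 and 2878 at 12 h and 6739, 8094 and 7689 at 24 h, a difference of 1.32 ± 0.17, and was among the members with the least spread within groups. In both genes the 24 h libraries were clearly apart from those of 12 h. Wfdc17, a small secreted protein with a WAP domain, went from a mean of 1487 to 3131. Mmp27, a matrix metalloproteinase, measured 153, 183 and 196 at 12 h and 428, 512 and 574 at 24 h, a difference of 1.497 ± 0.23. Angpt2, a ligand of the Tie receptor of blood vessels, measured 25.1, 40.1 and 27.7 at 12 h and 143, 161 and 156 at 24 h, a difference of 2.30 ± 0.31. The 3 libraries of 24 h lay close together in Angpt2, far above those of 12 h.

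Olfml3, a secreted glycoprotein known as a microglial gene, measured 12.2, 24.1 and 17.9 at 12 h and 153, 54.1 and 103 at 24 h, and its difference of 2.38 ± 0.45 came with a wide spread at 24 h. Ang, an angiogenic ribonuclease, went from a mean of 10.3 to 59.9 (2.39 on the log2 scale), and 14.5% of its 50-base words also occur in transcripts of its neighbour Rnase4. Cela1, an elastase, went from 22.6 to 78.4, and Htra3, a secreted serine protease, from 28.3 to 94.0. Mmrn2, a matrix protein of vessel walls, was the 1 member whose groups overlapped. Its level was 3.72, 8.99 and 5.34 at 12 h and 4.70, 85.7 and 25.5 at 24 h, so the 24 h value of replicate 1 lay within the 12 h range. Ceacam16 went from 42.5 to 96.2, and Prelp, Coch and Pla2g5 were under 2 normalized counts in every 12 h library.

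Enzymes of detoxification and redox chemistry numbered 9. Dhrs3 (chromosome 4, 144892827 to 144928209), which reduces retinaldehyde to retinol, measured 1537, 1704 and 2114 at 12 h and 6818, 5815 and 5629.6 at 24 h. Its means went from 1785 ± 297 to 6088 ± 639 (SD), a difference of 1.78 ± 0.19, with no overlap. Gstp1, a glutathione transferase, measured 629, 524 and 488 at 12 h and 1043, 1312 and 1097 at 24 h, a difference of 1.07 ± 0.20. Gstp2, which lies 2.3 kb away, measured 2.38, 0.814 and 3.65 at 12 h and 11.3, 28.7 and 5.14 at 24 h, but 54.3% of its 50-base words occur in Gstp1, so reads may be split between the pair. Steap3, a metal reductase that handles endosomal iron, measured 277, 229 and 321 at 12 h and 1065, 710.0 and 927 at 24 h, a difference of 1.70 ± 0.23. Akr1c18, which inactivates progesterone, measured 6.36, 30.7 and 7.84 at 12 h and 54.1, 116 and 122 at 24 h, a difference of 2.86 ± 0.57, and its highest 12 h library was replicate 2. Akr1c13, 40.5 kb away and a relative in the aldo-keto reductase family, went from 132 to 267, and it shares 24.2% of its words with Akr1c12. Cbr1, a carbonyl reductase, went from 138 to 314, Maoa, a monoamine oxidase, from 49.4 to 105, and the selenoprotein gene Selm from 177 to 357. The rise of Maoa rested on replicates 1 and 3, since replicate 2 measured 59.5 at 12 h and 63.5 at 24 h.

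Among 9 metabolic and lipid proteins, Ckb, the brain-type creatine kinase, measured 399, 374 and 312 at 12 h and 1058, 1426 and 1097 at 24 h, a difference of 1.71 ± 0.21. Tmem86a, an enzyme of ether lipid breakdown, measured 1734, 922 and 1328 at 12 h and 3580.4, 1950.3 and 2436 at 24 h and lay just inside the fold threshold. Tha1, a threonine aldolase, measured 46.6, 56.6 and 73.7 at 12 h and 266, 209 and 156 at 24 h, a difference of 1.81 ± 0.31. The 3 genes differed in spread, with an SD within groups on the log2 scale of 0.450 in Tmem86a, 0.357 in Tha1 and 0.211 in Ckb. Tmem86a had replicate 2 lowest at both times, and Ckb had it highest at 24 h only. Fabp7, a fatty acid binding protein best known from glia, measured 7.17, 5.20 and 10.9 at 12 h and 59.2, 44.0 and 41.8 at 24 h, a difference of 2.53 ± 0.43. Adi1 of methionine salvage went from 506 to 1118 and Pdp1, the phosphatase that activates pyruvate dehydrogenase, from 281 to 655. Of the 4 glycan synthesis genes, Xylt2, which starts glycosaminoglycan chains, measured 364, 393 and 363 at 12 h and 1045, 931 and 890.4 at 24 h, a difference of 1.35 ± 0.19 with the groups tight at both times. B4gat1 went from 173 to 371, with 83.4% of its words shared with an overlapping gene model, so its reads cannot be told apart from that model's.

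Signalling proteins numbered 11. Cblb and Rnf128, both E3 ubiquitin ligases that restrain lymphocyte activation, went from means of 1396 to 2946 and 963 to 2693. Aph1c, a subunit of γ-secretase, went from 814 to 1677, with 18.4% of its words in Aph1b. Nlrc3, a NOD-like receptor that dampens innate signalling, went from 169.9 to 354, and the kinase gene Map3k12 from 131 to 295. Their log2 differences were 1.06, 1.57, 1.04, 1.07 and 1.17. The groups were apart in all 11, beside 98.2% of all 335 listed genes that were higher. Of the 11, 5 had a mean under 50 normalized counts at 24 h.

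Of 7 channels and carriers, Kcnk13, a potassium leak channel, measured 475, 272 and 485 at 12 h and 1068, 696 and 776 at 24 h, a difference of 1.06 ± 0.27. Slc41a2, a magnesium transporter, measured 273, 290.4 and 369.6 at 12 h and 785, 549 and 886 at 24 h, a difference of 1.23 ± 0.24. Both were clear of their 12 h libraries, and Kcnk13 was lowest in replicate 2 at both times. Gja1, the main gap junction connexin of many tissues, measured 5.39, 23.0 and 39.9 at 12 h and 210.0, 54.4 and 227 at 24 h. Its difference of 2.91 ± 0.69 had one of the widest spreads, with replicate 2 lowest at 24 h and replicate 1 lowest at 12 h. The other 4 carriers were under 50 normalized counts at 24 h. The cytoskeletal members included Tubb2a, a β-tubulin that shares 49.6% of its words with Tubb2b, and it measured 503, 426 and 423 at 12 h and 984, 1014 and 1092 at 24 h, a difference of 1.19 ± 0.19. Tppp3, a microtubule-bundling protein, went from 117 to 380.4. Bsn, a scaffold of the synaptic active zone, went from 345 to 728.

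Transcription factors and zinc finger genes (10 members) had a median of 9.29 normalized counts per kb at 24 h. Nr1d1, the circadian repressor REV-ERBα, measured 61.5, 50.4 and 56.5 at 12 h and 170.2, 121 and 137 at 24 h, a difference of 1.32 ± 0.29, and its groups did not overlap. Hey1, a repressor induced by Notch signalling, measured 1.18, 0.871 and 0.884 at 12 h and 58.0, 3.14 and 35.6 at 24 h. Its difference of 3.39 ± 0.86 rested on replicates 1 and 3, since replicate 2 at 24 h was only a few counts above 12 h. Creb3l1, a membrane-bound factor of the secretory pathway, went from a mean of 111 to 227, and Hmga2, a chromatin protein of early development, from 22.5 to 59.0. In replicate 2 Hmga2 measured 32.2 at 12 h and only 37.3 at 24 h. Mlxipl, which encodes the glucose-responsive factor ChREBP, was listed at 0 in all 12 h libraries and measured 5.16, 14.9 and 4.10 at 24 h. Prss50 and Gm14308 were also listed at 0 in every 12 h library, with means of 12.2 and 5.36 normalized counts at 24 h, and no fold is given for these 3. The 28 members with no assigned role had differences from 0.98 to 3.63, the highest mean among them being that of Fam234a, 1156 to 2723.

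Replicate 2 lay at one end of the 3 libraries in part of the members. Among 74 members with a mean over the 6 libraries of at least 50 normalized counts, replicate 2 was the lowest of 3 at both times in 23, including Lgmn, Itgb5, Igf2r, Gaa, Dab2, Cblb, Ednrb, Rnf128, Steap3 and Kcnk13. It was the highest at both times in 10, including Ccl6, Ecm1, Angpt2, Selm, Grm6 and Akr1c13. The shares at both times were not computed for the other listed genes, so nothing is read from these counts. Relative to the mean of replicates 1 and 3, replicate 2 was lower at both times in 29 members, higher at both in 21 and of opposite sign in 24. The 24 h minus 12 h difference within replicate 2 was 2.12 in Dab2 and 2.38 in Ednrb, beside 2.74 and 2.72 within replicate 1 and 2.04 and 2.33 within replicate 3. In these genes replicate 2 was thus lower in level at both times, with a rise between those of replicates 1 and 3. Over all 121 members replicate 2 was lowest in 34.7% at 12 h and 38.8% at 24 h. Over the 214 other listed genes that were higher it was lowest in 46.3% and 46.7%, so its low position is not particular to the members. Replicate 2 was highest in 38.0% of the members at 12 h and 36.4% at 24 h. In the 214 other genes these shares were smaller, 13.1% and 23.8%, and the difference was not tested. Deviations from the group means, correlated across the 74 members (which are not independent replicates), gave r of 0.203, 0.351 and 0.151 for the same replicate number. Replicate 3 at 12 h and replicate 1 at 24 h gave 0.432, above all 3, so the members alone do not show the pairing by number that all listed genes show. This pattern was described after the values had been seen, and what replicate 2 shares was not tested.

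**Figure D4:**
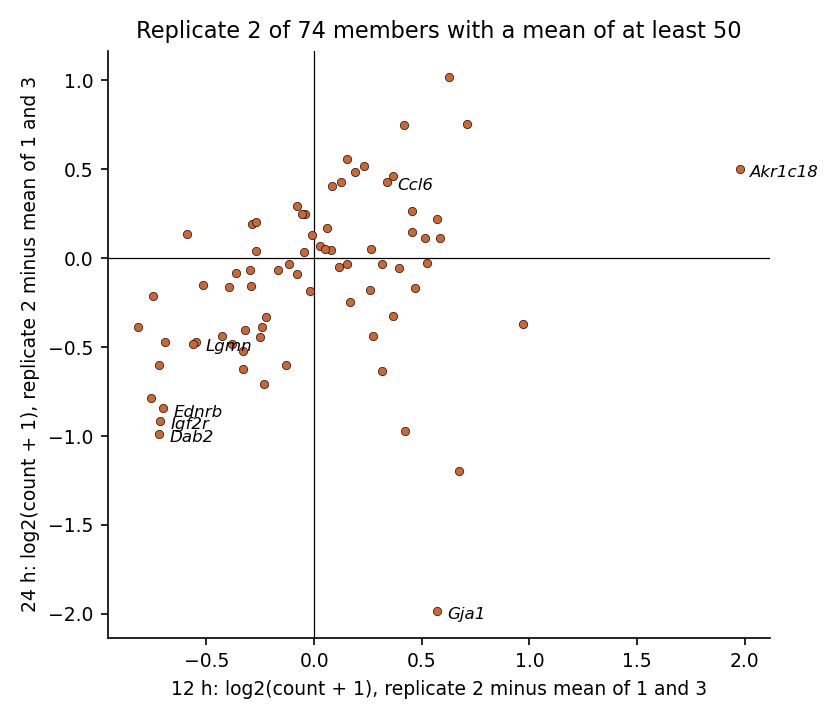
Level of replicate 2 relative to the mean of replicates 1 and 3 (log2(normalized count + 1)), at 12 h on the x axis and at 24 h on the y axis, 1 point per member with a mean of at least 50 normalized counts (n = 74). Of these, 29 lie at the lower left, among them Lgmn, Ednrb, Igf2r and Dab2, and 21 at the upper right, among them Ccl6.

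limma on log2(normalized count + 1), fitted to the 602 listed genes only, called 62 of 121 members, beside 60.0% of all 335 listed genes that were higher. With the replicate number as a block it called 113 members, beside 95.8%. Only the adjustment of the p-values was over 15541 genes. The members were selected on this contrast, so nothing is read from these counts.

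The gene lists give the surroundings of the members, and their counts are the authors' calls. Over all 15541 genes tested the authors listed 335 as higher (2.16%) and 267 as lower. No list was tested against these shares. Of 59 genes in the lysosome list 9 were listed and all 9 were higher, 3 of them members (Lgmn, Gaa, Naglu), with Ctsk, Gpnmb and Atp6v0d2 among the rest. Of 40 genes for uptake of dead cells 10 were listed and all were higher, among them Mertk, Gas6, Trem2 and the 3 C1q genes, and Itgb5 was the 1 member. Of 47 tissue macrophage genes 17 were higher and 2 lower, with Ednrb and Olfml3 as members. Chemokines and cytokines went both ways, 10 higher and 10 lower, with Ccl6 the 1 member and Cxcl10, Tnf and Il1b among the lower genes. Among 87 interferon-stimulated genes 12 were lower at 24 h, including Rsad2, Gbp2 and Cxcl10, and 1 was higher (Ccl12). All 13 were in the IFNβ list at 12 h, which the rule leaves out, so none could be a member. In the lipid list 9 were higher and 2 lower, with Fabp7 as the member, and of 81 cell cycle genes 1 was listed (Cdkn1c, higher). G protein-coupled receptors had 7 higher and 4 lower of 74, with Ednrb, P2ry2 and Gpr85 as members. Cytokine and chemokine receptors had 3 higher and 6 lower of 74, with no member, while transcription factors had 4 higher and 6 lower of 124, with Hey1 and Nr1d1 as members. Genes of the extracellular matrix had 5 higher and 4 lower of 73 (members Ecm1 and Mmp27), and solute carriers and channels 6 higher and 3 lower of 83 (members Slc41a2 and Kcnk13). The iron list had 2 higher and 2 lower of 31, with Steap3 as the member. Scavenger and lectin receptors (1 higher and 2 lower of 31) and genes of alternative activation (2 higher and 3 lower of 31) held no member.

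Marker genes moved with time in the same libraries. Their counts stand beside 335 higher (2.16%) and 267 lower of all 15541 genes tested. Of 24 macrophage markers 12 were listed, all higher, and Lgmn was the only member among them. Their summed level was 59008 to 92727 normalized counts at 12 h and 187992 to 264750.0 at 24 h. Most of this sum was Gpnmb (means of 41229 at 12 h and 118353 at 24 h) and Lgmn (23948 and 50413). Lgmn was chosen for its rise. Of 21 monocyte markers 5 were listed (Fn1, Klf4, Ace, Vcan and Nr4a1), all lower, with sums of 25071 to 47772 at 12 h and 6015 to 13184 at 24 h. The labelled cell type, monocytes in M-CSF culture, thus showed both marker sets at both times, and no listed macrophage or monocyte marker was at 0 in any library. Markers of other cells were few. The neutrophil list had 3 of 21 listed, all higher (Stfa2, Stfa2l1 and Stfa3), with sums of 95.1 to 260.0 at 12 h and 310.1 to 898 at 24 h. Of the T and NK cell list only Cd4 was listed, 11.3 to 22.6 at 12 h and 82.5 to 98.1 at 24 h. Of 14 dendritic cell markers 3 were higher and 1 lower, and of 14 osteoclast markers 2 were higher and 2 lower. Jchain, a plasma cell gene, and the erythroid genes Ermap and Slc4a1 were lower, and no stromal, endothelial, mast cell or basophil marker was listed. The part of these markers in the members' rise was not tested, and in bulk RNA fewer cells of a type and less RNA per cell cannot be told apart.

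Set beside the other listed genes that were higher, the members had a smaller median difference. The median log2 difference was 1.43 in the 121 members, 1.86 in the 109 genes also higher with time in control cells and outside the IFNβ list, 1.69 in the 48 genes also in the IFNβ list at 12 h only, and 1.92 in the 52 genes in all 3 lists. These are descriptions, since the rule used the same libraries. The 5 genes left out by name had a median of 2.25. Just inside the fold threshold were Tmem86a, P2ry2 and Ap5s1, with log2 fold changes of 1.0003, 1.003 and 1.006 in the authors' deposited table. Just inside the adjusted p threshold were Napb (0.0491), Zfp937 (0.0471) and Coch (0.0456) in the same deposited table. Just outside was Folr2, a folate receptor of tissue macrophages. In the authors' deposited table of control cells it had a log2 fold change of 1.83 and an adjusted p of 0.0378, so it fell to the control list. Gm5483 and Cpeb1 were also left out through the control list, with adjusted p-values of 0.0433 and 0.0444 there, and Angptl4 through the IFNβ list, with -1.10 and 0.0194, in the authors' deposited tables.

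Promoters were searched for 10 short motifs, on both strands, in RefSeq windows of 300 bases. Of 121 members 94 had a window. The interferon-stimulated response element core (GAAANNGAA) was found in 6 members (6.38%), beside 9.76% of all 27025 genes with a window and 21.5% of 665 genes listed as higher with IFNβ at 12 h. The rule leaves out every gene of that last set. The gamma-activated sequence core (TTCNNNGAA) was found in 2.13% of members, beside 9.55% and 11.3%. In 153 genes that were higher at 24 h with IFNβ and were not members the shares were 9.15% and 3.27%, so a low share of the gamma-activated core was not particular to the members. The members' shares rest on 6 and 2 genes, and the differences were not tested. The E-box was found in 11.7% of members, 8.09% of all genes and 9.32% of genes higher with IFNβ. In the 153 genes that were not members its share was 13.1%, above that of the members. The PU.1 core (GAGGAAG) was found in 15.96%, 15.4% and 19.1% of the same 3 sets, and the TATA box (TATAAA) in 13.8%, 15.7% and 14.6%. The MAF core (TGCTGAC) was found in 10.6% of members beside 5.28% of all genes and 5.86% of genes higher with IFNβ. The C/EBP core (TTGCNNAA) was in 17.02%, 12.2% and 14.6%, AP-1 (TGANTCA) in 4.26%, 8.97% and 11.3%, and the cAMP response element (TGACGTCA) in 4.26%, 2.03% and 3.46%. The NF-κB motif (GGGANTTTC) was in 0 of 94 members, beside 1.29% and 3.01%. With 94 members a few genes move a share, and windows of the same gene can overlap.

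**Figure D5:**
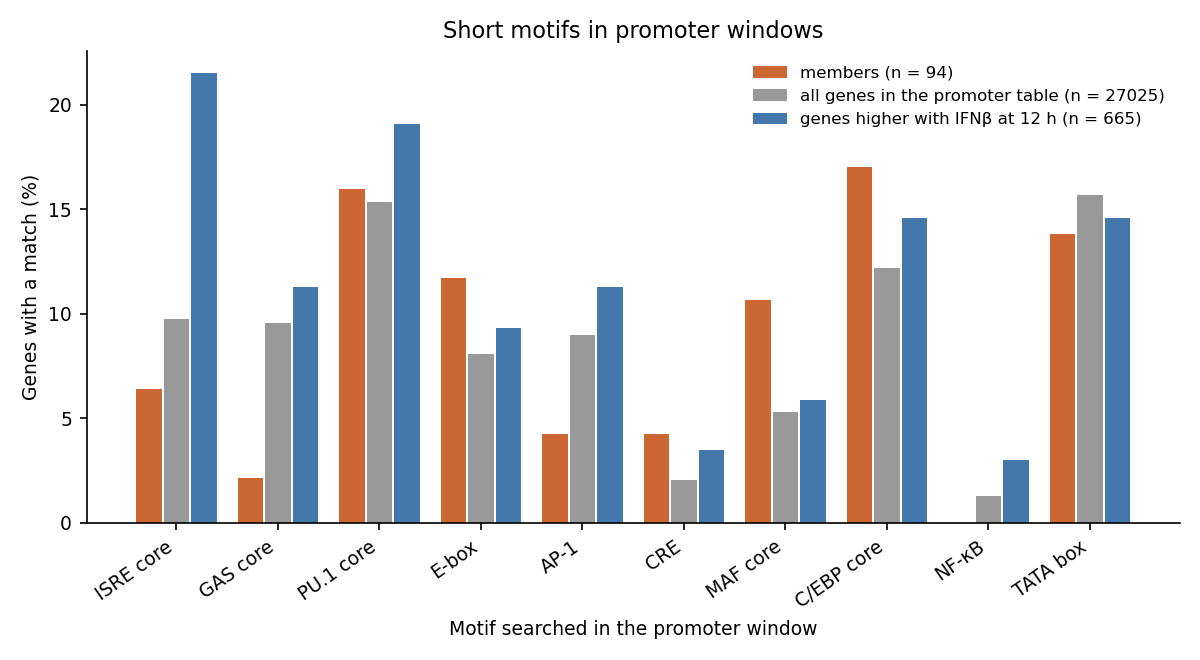
Share of genes (%) with at least 1 match to each of 10 motifs in a promoter window of 300 bases, for 94 members (orange), all 27025 genes with a window (grey) and 665 genes listed as higher with IFNβ at 12 h (blue). The interferon-stimulated response element (ISRE) core is in 6.38% of members and 21.5% of the genes higher with IFNβ, which the rule leaves out. The E-box is in 11.7% of members. GAS is the gamma-activated sequence and CRE the cAMP response element.

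The 6 members with the response element core were Dhrs3, Htra3, Mmp27, Nr1d1, Kcnk13 and Dab2. The windows of Mmp27, where the letters lie nearest to the start of these genes, and of Dhrs3, which had the largest difference among the 8 members of highest level, are shown with the matching letters in capitals (in Dhrs3 on the opposite strand).
Mmp27, chr9:7571146-7571445, plus strand: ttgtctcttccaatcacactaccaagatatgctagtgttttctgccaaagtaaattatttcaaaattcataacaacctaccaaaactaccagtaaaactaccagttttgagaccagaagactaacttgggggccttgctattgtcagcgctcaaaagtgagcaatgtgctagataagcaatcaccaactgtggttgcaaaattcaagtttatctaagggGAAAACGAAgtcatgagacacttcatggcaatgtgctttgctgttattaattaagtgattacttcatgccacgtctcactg
Dhrs3, chr4:144892827-144893126, plus strand: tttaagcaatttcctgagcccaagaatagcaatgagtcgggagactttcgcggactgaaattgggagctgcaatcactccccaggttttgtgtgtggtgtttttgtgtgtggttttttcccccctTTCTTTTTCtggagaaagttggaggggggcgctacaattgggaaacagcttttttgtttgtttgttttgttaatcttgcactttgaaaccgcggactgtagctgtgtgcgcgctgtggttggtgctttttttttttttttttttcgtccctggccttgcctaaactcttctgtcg
In Mmp27 the first base of the match is 31 bases before the start, and in Dhrs3 125 bases before the start of this window's transcript. With windows cut to 150 bases before the start, 3 members held the letters.

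Positions could be given for 119 of 121 members, and 118 were protein coding in GENCODE release 21 for mouse (GRCm38). Members lay close to each other in several places. Hoga1 and Morn4 were 3.99 kb apart, Cxx1a and Cxx1b 25.5 kb, and Ccl6 and Wfdc17 111 kb. Ceacam16 and Gm19345 overlap on opposite strands. Over 10% of 50-base words were shared with another gene's transcripts in 14 members, among them the pair Cxx1a (82.5%) and Cxx1b (80.0%), Gm14308 (98.1%) and Gm3650 (92.8%). In 10 members over 10% of exon bases overlap an antisense gene, among them Smco3 (95.8%), Abhd14b (28.4%) and Map3k12 (19.3%). No source used here gives the strand setting of the counting, so such reads cannot be told apart.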

How the data were processed

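Per the submitters' processing notes, the authors used HISAT2 2.2.1, bcl2fastq and edgeR 3.3.3 with the GRCm38 build. The counter, annotation and strand setting: not given in the sources used here. Per the file headers, the deposited tables hold 6 library columns beside the authors' log2 fold change, p-value and adjusted p-value. Tested on the files, they list genes below an adjusted p of 0.05 whose log2 fold change reaches 1 in either direction. The deposited library values are read from their range as a signal, normalized counts within a table, so the planned count test was replaced by limma 3.58.1 (R 4.3.3) on log2(value + 1) with a variance trend, adjusted over 15541 genes. The fit and its variance trend used only the 602 listed genes, which were selected on this contrast. limma was tested on simulated data. The p-values were selected to be small and support nothing.

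Groups come from the labels. Over 414 listed genes with a mean of at least 50, deviations from the group means went with the replicate number. The r was 0.391, 0.485 and 0.398 for the same number and -0.551 to 0.0739 for different ones. The block by replicate number was planned as an alternative, and the standard errors given are from the fit without it. Members, 15 role lists, 10 cell type lists and 10 motifs were chosen with earlier results of these data known, and roles were assigned with values seen; 1 gene of the monocyte list is not reported here. Genes given with library values were the up to 6 members of highest level per list, the 12 largest differences (outside the lower quartile of level), the 8 highest levels and the 3 largest and 3 smallest spreads within groups. Others were added after their values were seen. Python 3.11.15, numpy 2.4.6, pandas 2.3.3 and matplotlib 3.10.9 were used. Alternatives are under the closing section.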

Additional observations from a re-analysis of the deposited data

How the results depend on the processing

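The number of members was 121 as reported, 57 with a log2 fold change of at least 1.5 and 74 with a mean over the 6 libraries of at least 50 normalized counts, where the groups of all 74 were apart. The median log2 difference of 1.43 was 1.37 to 1.49 without 1 library each. It was smaller, 1.17, over the 74 members with a mean of at least 50 normalized counts. With the libraries scaled to the same median over the 203 genes in this table only it was 0.941. That scaling moved the median of all listed genes by -0.49, and since 126 of those 203 genes were higher and 77 lower it removes part of the rise by construction; all 121 members were still higher, the lowest by 0.49. Libraries did not overlap in 120 members, 120 to 121 without 1 library and 96 with that scaling, under which 58 members differed by at least 1 on the log2 scale. Without scaling, 63 members were higher by at least 1 within each replicate number (replicate block). The limma count of 62 became 19 with no variance trend, 113 with the replicate block, and 20 to 52 without 1 library, lowest without replicate 3 at 24 h with IFNβ (20); the cause was not tested beyond the smaller number of libraries. Without replicate 1 or 3 at 12 h it was 34 and 32, and without replicate 1 at 24 h 32. Response element cores were in 3 rather than 6 members with the shorter window, which holds fewer bases. The members were chosen as higher at 24 h in these same libraries, so a rise kept under these settings is no support. Shares of the other listed genes with groups apart under these settings were not computed. The depth of the libraries is unknown, so no counting interval is given for low members.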

Other observations

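In 10 members, as 5 pairs, the values of the 3 libraries at 12 h with IFNβ were equal between both genes of the pair to within 1e-04. The pairs were Sdk2 with Nxnl1, Prelp with Mylk2, Slc1a2 with Zfp872, Gstp2 with Slc9b2, and Gm3650 with Smco3. The highest 12 h value among them was 3.65 normalized counts, and their values at 24 h differed. These genes lie at the lowest counts of the table, where the deposited values take few distinct levels, and small values such as 0.0503 in Sdk2 and Nxnl1 are not whole reads.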
